A study of Mus musculus with 6 samples.

Results

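The genes described are 10 of the 48440 genes in a table of read counts from mouse tissue around an implant, namely 7 genes of activated fibroblasts and of the matricellular proteins they secrete (Postn, Tnc, Fn1, Cthrc1, Fap, Lrrc15 and S100a4), 2 genes of resting fibroblasts (Pi16 and Dpt), and Mfap5, which was placed in neither class. They were chosen by symbol, and each symbol matched 1 line of the table. Fibroblasts of loose connective tissue make and maintain collagen, and in a resting state many of them lie around vessels and express Pi16 and Dpt. After injury, or around a foreign body, fibroblasts can take on an activated state in which they contract, deposit new matrix and secrete matricellular proteins. These are proteins of the matrix that bind cell surface receptors and growth factors and are best known for acting on cells, such as periostin and tenascin-C. Axitinib is an inhibitor of the receptor tyrosine kinases for vascular endothelial growth factor.

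The tissue came from BALB/c nude mice, which have no working thymus and so lack most T cells. Cartilage engineered from rabbit bone marrow stromal cells was wrapped in an electrospun PCL/collagen membrane and placed under the skin. The membrane was made without axitinib (0%-Axitinib group) or with 3% of it by weight (3%-Axitinib group). Constructs were harvested after 12 weeks with the entangled mouse tissue, and RNA was sequenced in 3 samples per group. Reads were aligned to the mouse genome, and whether reads of the rabbit cells were among those counted was not tested. The labels call the first group untreated, and it was read as the 0%-Axitinib group because the protocol given for every sample has only membranes with 0% or 3% of the drug. A pair of constructs of the same group was placed in each mouse, and which mouse gave which sample was not stated, so p-values measure only the spread between these samples, which may share a mouse. The comparison asks how fibroblast genes differ between tissue next to a membrane with the drug and tissue next to a membrane without it.

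Reads counted on genes numbered 17761968, 16716411 and 18005908 in replicates 1, 2 and 3 of the 0%-Axitinib group and 9225518, 11686084 and 18403795 in replicates 1, 2 and 3 of the 3%-Axitinib group. At these depths, 3 reads in a sample correspond to between 0.157 and 0.330 CPM (counts scaled to a common library size with the TMM method), a limit that covers counting error only. Unmapped reads took up 8.08% ± 5.99 (SD, n = 3) of a library without the drug, against 31.5% ± 15.9 (SD, n = 3) with it (p = 0.1 in an exact two-sided permutation test, which cannot give less with 3 samples a group). Their part in the results below was not tested.

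Libraries of each group stood apart from the others of that group. In 0%-Axitinib replicate 3, S100a9, a calcium-binding protein abundant in neutrophils, reached 10660 CPM, while the other 5 samples lay between 6.08 and 43.2 CPM. The 9 lymphocyte genes summed to 423 CPM in that library, against 17.2 and 26.2 CPM in replicates 1 and 2 of its group. Spearman's rho of that library with the other 5, across the tested genes, lay between 0.846 and 0.893, while rho of replicates 1 and 2 was 0.978 (genes are not independent replicates). In 3%-Axitinib replicate 2, the 8 osteoblast genes summed to 12413 CPM, against 1242 and 2293 CPM in replicates 1 and 3, and the 12 skeletal muscle genes summed to 16.6 CPM, against 13143 and 7233 CPM. In the 0%-Axitinib samples the same lists summed to 322, 256 and 683 CPM for osteoblast and to 133, 4.32 and 11.2 CPM for muscle genes. In 0%-Axitinib replicate 2, the 8 keratinocyte genes summed to 989 CPM, while the other 5 samples lay between 7.26 and 13.2 CPM. Many of the values below are therefore also given without 0%-Axitinib replicate 3, without 3%-Axitinib replicate 2 or without both. Leaving out each single sample was planned, while singling out these libraries and leaving out both were chosen after the data were seen.

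Of the 10 genes, 9 had enough reads for edgeR's quasi-likelihood test, and S100a4 had not. The criterion used in the study, a change by a factor of 1.5 or more at a p no larger than 0.05, was applied to the unadjusted p of this test. Cthrc1 and Mfap5 met it, both with higher values in the 3%-Axitinib group, and none met it with lower values. Of all 15257 tested genes, 9.54% met it higher and 11.7% lower, or 21.2% in either direction. With total counts in place of TMM scaling, 989 genes (6.48%) met it higher and 2448 (16%) lower, in place of 1456 and 1785, and the same 2 members met it higher. Without both libraries that stand apart, 3 of the 9 genes met it higher, Tnc besides these, and none lower, against 15.2% higher and 14.5% lower of the genes tested in that fit. In the fit of all 6 samples, each of the 9 genes had a log2 fold change above 0, as did 48.2% of the tested genes. With Benjamini-Hochberg adjustment across the whole table, 0 of the 9 genes passed an adjusted p of 0.05 in edgeR's test, and 1 gene of the table did (0.00655%). Without adjustment, 2 of the 9 and 3585 of the 15257 tested genes passed 0.05, which are similar shares. With DESeq2's Wald test, Cthrc1 and Mfap5 had Benjamini-Hochberg adjusted p of 0.00264 and 0.0252, and 1960 of the 15257 tested genes passed 0.05 there. In 3 of the 10 genes, Cthrc1, Fap and Mfap5, every 3%-Axitinib sample was above every 0%-Axitinib sample, which held for 14.7% of all tested genes. The median log2 fold change was 0.94 over the 6 activated genes tested and 0.31 over the 2 resting genes, against -0.03 over all tested genes. The order of these 2 medians turned without 3%-Axitinib replicate 2 (0.46 for activated and 0.68 for resting genes) and without both libraries that stand apart (0.40 and 0.50). In bulk tissue, fewer cells of a type and less RNA per cell cannot be told apart.

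**Figure D1:**
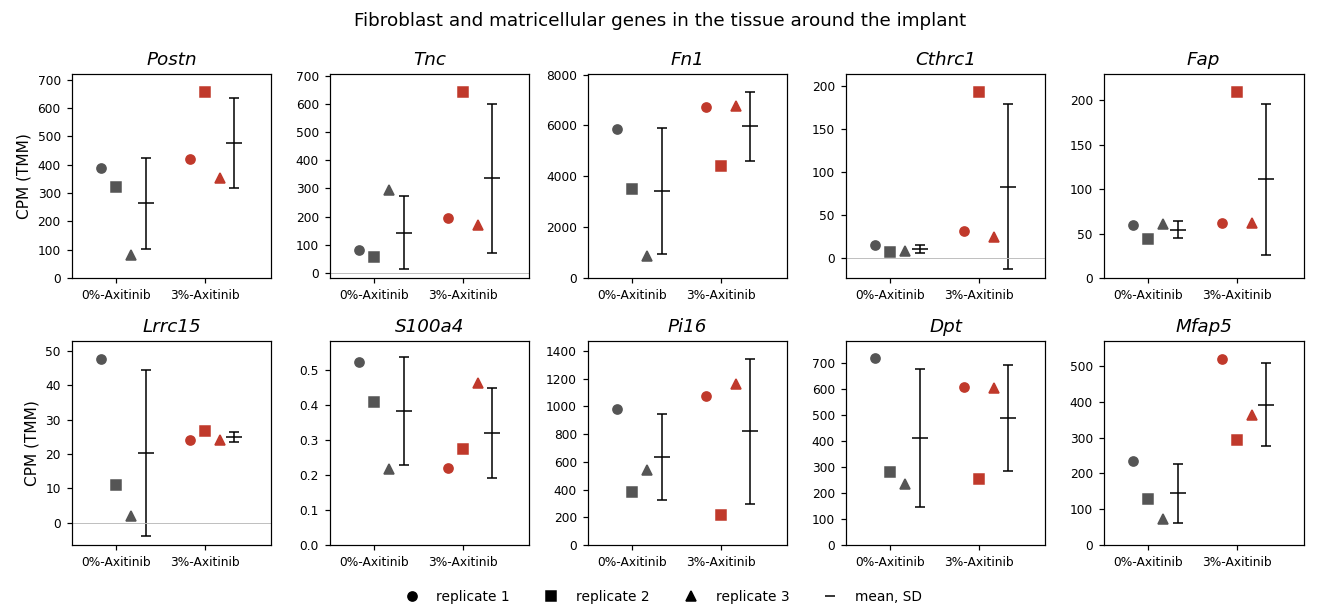
Expression in CPM after TMM scaling (linear axes) of the 10 genes in the 3 samples of each group, with the mean and the SD beside the points and the replicate given by the shape of the point. Replicate 2 of the 3%-Axitinib group is the highest sample for Postn, Tnc, Cthrc1 and Fap and the lowest for Pi16 (218 CPM).

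Among the matricellular proteins, Cthrc1 encodes a secreted glycoprotein with a short collagen-like repeat that marks fibroblasts making matrix in injured tissue. Its expression was 16.03, 7.41 and 8.91 CPM in replicates 1, 2 and 3 of the 0%-Axitinib group and 31.6, 194 and 24.8 CPM in those of the 3%-Axitinib group. The lowest 3%-Axitinib sample was above the highest 0%-Axitinib sample, and replicate 2 of the 3%-Axitinib group was 6.88 times the mean of the other samples of its group. The fold change on the log2 scale was 2.95 (standard error, SE, 0.85; unadjusted p = 0.0104; Benjamini-Hochberg adjusted p = 0.123 in edgeR's quasi-likelihood test). Without 3%-Axitinib replicate 2 it was 1.38 (SE 0.40, adjusted p = 0.203 in the same edgeR test with Benjamini-Hochberg adjustment), and without both libraries that stand apart it was 1.26 (SE 0.38, adjusted p = 0.0783). Cthrc1 met the study's criterion with each of these sets of samples. It was 2.28 with the replicate number as a block, and over all alternatives its adjusted p (Benjamini-Hochberg, edgeR, DESeq2 or limma) lay between 0.00264 and 0.280.

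Postn encodes periostin, which binds integrins and collagen and takes part in collagen cross-linking. Its values were 388, 321 and 81.7 CPM in 0%-Axitinib tissue and 419, 656 and 353 CPM in 3%-Axitinib tissue. The groups overlapped, with the lowest value in 0%-Axitinib replicate 3, which was 0.231 times the mean of the other samples of its group, and the highest in 3%-Axitinib replicate 2. Its log2 fold change was 0.85 (SE 0.57; adjusted p = 0.386, edgeR's quasi-likelihood test with Benjamini-Hochberg adjustment) and 0.12 (SE 0.23) without the libraries that stand apart, and 0.54 (SE 0.64) without 3%-Axitinib replicate 2 alone. The value without 0%-Axitinib replicate 1 was 1.24 (SE 0.64), and Postn met the criterion in none of the fits.

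Tnc encodes tenascin-C, a large glycoprotein of several arms that is scarce in most adult connective tissue and is made in healing wounds and tendon. It was measured at 80.6, 57.1 and 293 CPM in 0%-Axitinib tissue and at 197, 641 and 170 CPM in 3%-Axitinib tissue. Replicate 3 of the 0%-Axitinib group was above replicates 1 and 3 of the 3%-Axitinib group, so the groups overlapped, and within each group the library that stands apart was the highest. For Tnc, the log2 fold change was 1.23 (SE 0.77; adjusted p = 0.363, edgeR's quasi-likelihood test with Benjamini-Hochberg adjustment). It was 2.28 (SE 0.66, unadjusted p = 0.0127) without 0%-Axitinib replicate 3, 0.37 (SE 0.70) without 3%-Axitinib replicate 2, and 1.41 (SE 0.23) without both. With the level of muscle genes as a covariate it was 2.01 (SE 0.74, unadjusted p = 0.0329), which met the criterion, as did the fits without 0%-Axitinib replicate 3 and without both libraries. In the fit without both libraries, edgeR's quasi-likelihood test gave a Benjamini-Hochberg adjusted p of 0.0295, where 1572 of the 15477 tested genes passed 0.05. Over all alternatives, the adjusted p of Tnc (Benjamini-Hochberg, edgeR, DESeq2 or limma) lay between 0.0295 and 0.805.

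Fn1 encodes fibronectin, the glycoprotein on which cells assemble other matrix fibres. It reached 5842, 3517 and 879 CPM in 0%-Axitinib tissue and 6713, 4399 and 6767 CPM in 3%-Axitinib tissue. Replicates 1 and 3 of the 3%-Axitinib group were the highest samples, replicate 2 was below 0%-Axitinib replicate 1, and 0%-Axitinib replicate 3 was the lowest. The log2 fold change of 0.80 (SE 0.66) had an adjusted p of 0.484 in edgeR's quasi-likelihood test with Benjamini-Hochberg adjustment, and Fn1 met the criterion in none of the fits. It was 0.35 (SE 0.37) without 0%-Axitinib replicate 3, 0.53 (SE 0.40) without both libraries that stand apart, 0.32 (SE 0.77) with the muscle covariate and 1.44 (SE 0.71) without 0%-Axitinib replicate 1.

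Of the cell surface proteins, Fap encodes fibroblast activation protein, a membrane-bound serine protease that cleaves denatured collagen. Its values were 59.2, 43.4 and 60.5 CPM in 0%-Axitinib tissue and 62.2, 210 and 61.4 CPM in 3%-Axitinib tissue. The groups did not overlap, but replicates 1 and 3 of the 3%-Axitinib group lay close above replicates 1 and 3 of the 0%-Axitinib group, and 3%-Axitinib replicate 2 was 3.39 times the mean of the other samples of its group. With total counts in place of TMM scaling, or with no expression filter, the groups of Fap overlapped, and Cthrc1 and Mfap5 alone of the 10 genes had 3%-Axitinib samples all above the others, against 10.3% and 9.24% of the genes in these fits. The log2 fold change of Fap was 1.03 (SE 0.51, unadjusted p = 0.0808; adjusted p = 0.264, edgeR's quasi-likelihood test with Benjamini-Hochberg adjustment), 0.19 (SE 0.23) without 3%-Axitinib replicate 2 and 0.27 (SE 0.20) without both libraries that stand apart. Fap met the criterion without replicate 1 or 3 of the 3%-Axitinib group (1.32 in both fits) and with the level of muscle genes as a covariate (1.54, SE 0.36).

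Lrrc15 encodes a membrane protein with leucine-rich repeats found on myofibroblasts. It was measured at 47.7, 11.02 and 2.12 CPM in 0%-Axitinib tissue and at 24.2, 26.7 and 24.1 CPM in 3%-Axitinib tissue. The 3%-Axitinib samples lay close together inside the wide range of the 0%-Axitinib samples, whose replicate 1 was the highest of all and whose replicate 3 was the lowest. Over all samples, the log2 fold change was 0.30 (SE 0.90; adjusted p = 0.860, edgeR's quasi-likelihood test with Benjamini-Hochberg adjustment), 1.92 (SE 0.67, unadjusted p = 0.0271) without 0%-Axitinib replicate 1 and -0.24 (SE 0.54) without 0%-Axitinib replicate 3. The direction of Lrrc15 thus differed between these fits, and it met the criterion, as higher, without 0%-Axitinib replicate 1 alone. With limma-voom and with the replicate number as a block it was 1.24 and 1.23.

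S100a4 encodes a small calcium-binding protein, also called fibroblast-specific protein, that leukocytes make as well. It had 10, 7 and 4 reads in the 0%-Axitinib samples and 2, 3 and 8 reads in the 3%-Axitinib samples, or between 0.217 and 0.522 CPM. All 6 values lay near the floor of 3 reads and the groups overlapped. S100a4 did not pass the expression filter, so no fold change is given for it. In the GENCODE annotation of GRCm38, 302 of the 584 exon bases of S100a4 (51.7%) also belong to exons of Gm42674 on the same strand, and Gm42674 had 0 reads in all samples. Reads that lie in exons of more than 1 gene are given to none in the layout of these counts, so the level of S100a4 is uncertain. The coding sequence of the S100a4 transcript is shown because 287 of its 303 bases (94.7%) are shared. It lies on the plus strand of GRCm38 in a first part at chr3:90605012-90605152 and a second at chr3:90605740-90605901, with the bases that Gm42674 shares in capitals.
S100a4 first part: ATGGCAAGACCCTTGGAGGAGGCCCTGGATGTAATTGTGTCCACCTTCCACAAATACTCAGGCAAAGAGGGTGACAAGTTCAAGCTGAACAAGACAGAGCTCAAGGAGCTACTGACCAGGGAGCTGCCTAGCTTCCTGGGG
S100a4 second part: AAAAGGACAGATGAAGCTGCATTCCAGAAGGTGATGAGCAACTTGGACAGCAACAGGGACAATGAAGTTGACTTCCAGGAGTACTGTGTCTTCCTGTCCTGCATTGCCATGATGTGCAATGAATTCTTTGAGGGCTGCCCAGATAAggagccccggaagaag

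The other 9 genes share no exon base with another gene of the same strand. Exons of genes on the other strand overlap 3.49% of the exon bases of Pi16, 2.50% of those of Fn1 and 2.27% of those of Tnc, and whether the counting used the strand was not stated.

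Of the resting genes, Pi16 encodes a peptidase inhibitor that marks fibroblasts of the adventitia and fascia, often taken as a reserve from which other fibroblasts arise. Its values were 980, 385 and 541 CPM in 0%-Axitinib tissue and 1078, 218 and 1166 CPM in 3%-Axitinib tissue. Replicates 1 and 3 of the 3%-Axitinib group were the highest of all samples and replicate 2 the lowest of all, at 0.195 times the mean of the other samples of its group. Pi16 had log2 fold changes of 0.37 (SE 0.65; adjusted p = 0.756, edgeR's quasi-likelihood test with Benjamini-Hochberg adjustment) and 0.82 (SE 0.48) without 3%-Axitinib replicate 2. Without both libraries that stand apart it was 0.72 (SE 0.45), and without 3%-Axitinib replicate 3 it was 0.02 (SE 0.77).

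Dpt encodes dermatopontin, a small matrix protein that binds decorin and takes part in the assembly of collagen fibrils. It was measured at 718, 281 and 235 CPM in 0%-Axitinib tissue and at 607, 253 and 605 CPM in 3%-Axitinib tissue. The groups overlapped, and 3%-Axitinib replicate 2 lay with replicates 2 and 3 of the 0%-Axitinib group while the other 3 samples were higher. Dpt had log2 fold changes of 0.25 (SE 0.54; adjusted p = 0.804, edgeR's quasi-likelihood test with Benjamini-Hochberg adjustment), -0.04 (SE 0.53) without 0%-Axitinib replicate 3 and 0.92 (SE 0.47) without 0%-Axitinib replicate 1. Without 3%-Axitinib replicate 2 it was 0.55 (SE 0.55).

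With the mean level of the skeletal muscle genes as a covariate, both resting genes turned to lower values in the 3%-Axitinib group, with log2 fold changes of -1.20 (SE 0.40, unadjusted p = 0.0216) for Pi16 and -0.61 (SE 0.44) for Dpt. In this fit Cthrc1, Tnc and Fap met the criterion higher, Mfap5 did not meet it and Pi16 met it lower, against 6.29% higher and 5.9% lower of the tested genes. That covariate is itself measured in these samples, and 3%-Axitinib replicate 2 had the lowest muscle gene levels and the lowest Pi16 and Dpt of its group. The part of muscle tissue in the levels of the resting genes was not tested beyond this fit.

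Mfap5 encodes a glycoprotein of the microfibrils on which elastic fibres form, and it is expressed by fibroblasts that also express Pi16. It was measured at 235, 128 and 72.8 CPM in 0%-Axitinib tissue and at 519, 292 and 364 CPM in 3%-Axitinib tissue. All 3%-Axitinib samples were above all 0%-Axitinib samples, and replicate 2 of the 3%-Axitinib group, the highest sample for 4 of the activated genes, was here the lowest of its group. The log2 fold change was 1.43 (SE 0.46; unadjusted p = 0.0169; adjusted p = 0.139, edgeR's quasi-likelihood test with Benjamini-Hochberg adjustment) and 1.28 (SE 0.36) without the libraries that stand apart. Mfap5 missed the study's criterion without 0%-Axitinib replicate 2 (1.34, unadjusted p = 0.0539), without 3%-Axitinib replicate 1 (1.17, unadjusted p = 0.0658) and with the muscle covariate (0.95, unadjusted p = 0.0842). Its adjusted p (Benjamini-Hochberg, edgeR, DESeq2 or limma) lay between 0.0252 and 0.455 over all alternatives.

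**Figure D2:**
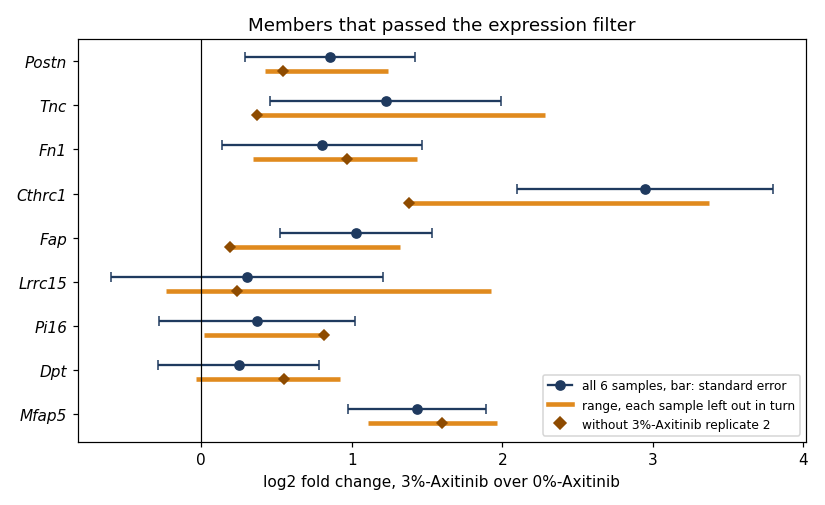
Log2 fold change (3%-Axitinib over 0%-Axitinib, horizontal axis) of the 9 tested genes, with points for all 6 samples, thin bars for the standard error, thick bars for the range when each sample is left out in turn, and diamonds for the fit without 3%-Axitinib replicate 2. Leaving out that replicate takes Cthrc1 from 2.95 to 1.38, Tnc from 1.23 to 0.37 and Fap from 1.03 to 0.19, while Pi16 moves from 0.37 to 0.82.

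Activated against resting genes were compared within each sample as the mean log2 CPM of the 7 activated genes minus that of Pi16 and Dpt. This difference was -3.67, -3.09 and -3.75 in replicates 1, 2 and 3 of the 0%-Axitinib group and -3.51, -0.80 and -3.57 in those of the 3%-Axitinib group. Replicates 1 and 3 of the 3%-Axitinib group lay within the range of the 0%-Axitinib samples, and replicate 2 alone lay above it. The group means were -3.50 ± 0.36 and -2.62 ± 1.58 (SD, n = 3 each), a difference of 0.88 on the log2 scale. Without 3%-Axitinib replicate 2 the difference was -0.03, and without both libraries that stand apart it was -0.16. The values above with libraries left out include S100a4. With the 6 activated genes other than S100a4, the difference over all samples was 1.10. The 6-gene level minus the resting level was -2.56, -2.06 and -2.71 in replicates 1, 2 and 3 of the 0%-Axitinib group. In those of the 3%-Axitinib group it was -2.23, 0.60 and -2.42, so replicates 1 and 3 again lay within the range of the 0%-Axitinib samples.

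The same library led in ratios between single genes. On the log2 scale, Cthrc1 relative to Pi16 was -5.92, -5.67 and -5.90 in the 0%-Axitinib samples and -5.09, -0.17 and -5.55 in the 3%-Axitinib samples. For Tnc relative to Pi16, the values were -3.60, -2.75 and -0.89 against -2.46, 1.55 and -2.78. Cthrc1 relative to Pi16 was thus higher in every 3%-Axitinib sample, while for Tnc the groups overlapped. For Fap relative to Pi16, replicates 1 and 3 of the 3%-Axitinib group, at -4.11 and -4.24, were below all 0%-Axitinib samples (-4.05, -3.15 and -3.16), and replicate 2 was above them at -0.06. Mfap5 relative to Pi16 was -2.06, -1.59 and -2.89 in the 0%-Axitinib group and -1.05, 0.42 and -1.68 in the 3%-Axitinib group, so that replicate 3 of the latter lay below 0%-Axitinib replicate 2. The ratio of the 2 resting genes also differed in that library, where Pi16 relative to Dpt was -0.21, against values between 0.45 and 1.21 in the other 5 samples. These ratios take no account of gene length, and per kilobase of exon Pi16 was below Dpt in every sample.

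Of the 10 genes, 4 (Postn, Tnc, Cthrc1 and Fap) had their highest value in 3%-Axitinib replicate 2, as did 16.4% of all tested genes. The lowest value of 5 of the 9 tested genes (Postn, Fn1, Lrrc15, Dpt and Mfap5) was in 0%-Axitinib replicate 3, against 26.8% of all tested genes. In 3%-Axitinib replicate 2, Col1a1 reached 30639 CPM and Ibsp, the bone sialoprotein of osteoblasts, 10536 CPM, or 3.80 and 7.38 times the mean of the other samples of that group. Osteoblast-lineage cells can also express Postn, Tnc and Cthrc1. The part of bone-forming or other cells in the values of that library was not tested.

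Levels of different genes were compared as CPM per kilobase of exon. In the 0%-Axitinib group, the mean levels per kilobase were 292 ± 213 for Fn1, 238 ± 155 for Dpt, 99.8 ± 48.5 for Pi16, 40.4 ± 22.9 for Mfap5, 30.3 ± 18.5 for Postn and 18.5 ± 16.7 for Tnc (SD, n = 3 each), followed by Fap, Cthrc1, Lrrc15 and S100a4 between 9.60 and 0.655. Of neighbours in this order, only Pi16 and Mfap5 differed by more than the larger of their SDs. In the 3%-Axitinib group, the mean levels per kilobase were 510 ± 116 for Fn1, 283 ± 118 for Dpt, 129 ± 82.3 for Pi16, 109 ± 32.3 for Mfap5, 54.7 ± 18.3 for Postn, 52.3 ± 60.1 for Cthrc1 and 43.2 ± 34.0 for Tnc (SD, n = 3 each), with Fap, Lrrc15 and S100a4 between 19.6 and 0.546. Here Fn1 and Dpt, Dpt and Pi16, Mfap5 and Postn, and Lrrc15 and S100a4 differed by more than the larger SD, and the other neighbours did not. Cthrc1 was 2 places higher in the order of the 3%-Axitinib group than in that of the 0%-Axitinib group, past Tnc and Fap. In replicates 1 and 3 of the 3%-Axitinib group, its levels of 19.8 and 15.6 per kilobase were above those of Fap (10.99 and 10.8) and below those of Tnc (25.3 and 21.9).

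Promoter windows are shown for 3 activated genes with different patterns over the samples, Postn, Tnc and Lrrc15. RefSeq windows (GRCm38.p6) of 250 bases before to 50 after a gene start were at hand for 6 of the 10 genes, and those printed have their start within 2 bases of the gene start in the GENCODE annotation. They were searched on both strands for TATAAA, the core promoter motif bound by TBP, for TGANTCA, the motif of AP-1 factors, and for GGAATG, the motif of TEAD factors, which occur in 13.6%, 7.81% and 14.7% of all 32851 windows of this length. Matches are in capitals. The windows are chr3:54360857-54361156 on the plus strand for Postn, chr4:64046966-64047265 on the minus strand for Tnc and chr16:30283205-30283504 on the minus strand for Lrrc15.
Postn: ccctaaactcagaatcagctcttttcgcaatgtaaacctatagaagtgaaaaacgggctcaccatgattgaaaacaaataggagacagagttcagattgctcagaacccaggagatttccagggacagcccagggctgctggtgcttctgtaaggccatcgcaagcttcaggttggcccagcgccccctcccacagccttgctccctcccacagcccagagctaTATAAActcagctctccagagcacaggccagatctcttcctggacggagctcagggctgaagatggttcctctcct
Tnc: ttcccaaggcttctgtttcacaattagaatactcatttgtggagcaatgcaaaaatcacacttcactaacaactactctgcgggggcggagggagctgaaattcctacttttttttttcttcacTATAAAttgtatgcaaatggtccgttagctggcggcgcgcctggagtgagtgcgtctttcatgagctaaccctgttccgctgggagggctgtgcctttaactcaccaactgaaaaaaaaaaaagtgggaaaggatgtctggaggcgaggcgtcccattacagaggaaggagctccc
Lrrc15: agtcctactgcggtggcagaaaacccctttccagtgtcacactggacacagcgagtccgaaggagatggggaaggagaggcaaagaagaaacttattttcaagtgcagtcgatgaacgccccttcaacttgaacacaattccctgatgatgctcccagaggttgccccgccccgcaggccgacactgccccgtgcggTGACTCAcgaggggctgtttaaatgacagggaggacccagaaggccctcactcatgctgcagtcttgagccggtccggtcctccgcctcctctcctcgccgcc
The window of Postn held TATAAA 26 bases before the start and that of Tnc 126 bases before it, and Lrrc15 held TGACTCA, a form of the AP-1 motif. None of the windows printed held GGAATG. The windows of S100a4 and Dpt also held TATAAA, the latter after the start of a window that is not at the GENCODE gene start. A match is a description of the letters and not of binding.

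Other genes of fibroblasts were described by lists that leave out the 10 members. Each list was also counted in 14 alternative fits (other scalings, DESeq2, limma-voom, the replicate number as a block, the muscle covariate and samples left out). Of all tested genes, 9.54% met the criterion higher and 11.7% lower, and over the alternatives between 6.29% and 15.2% higher and between 5.9% and 16% lower, so a list's count near these shares is not a result about the list. Of 13 general fibroblast genes, 4 met the study's criterion with higher values in the 3%-Axitinib group and none with lower values, and their median log2 fold change was 0.95, against -0.03 over all tested genes. Mmp2, a gelatinase, was at 1272, 740 and 434 CPM in 0%-Axitinib tissue and at 2728, 2635 and 2757 CPM in 3%-Axitinib tissue. All 3%-Axitinib samples were above all 0%-Axitinib samples, with a log2 fold change of 1.73 (SE 0.44), and for Serpinf1, an antiangiogenic serpin, it was 1.62 (SE 0.39). Col1a1, the main collagen chain of connective tissue and bone and the most abundant of the list, had a log2 fold change of 1.79 (SE 0.72). Fits in which it missed the criterion were those with total counts in place of TMM scaling, with the replicate block, lacking replicate 2 or 3 of either group, and lacking both libraries that stand apart. Without both libraries, 2 genes of the list met the criterion higher and 1 lower, and the median was 0.25. Over the alternatives, between 2 and 7 genes met it higher, most without 0%-Axitinib replicate 1, where the median was 1.53.

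Of 15 other resting and adventitial fibroblast genes, 2 met the criterion higher and none lower, with a median of 0.36, and the count is near the 9.54% of all tested genes. The list turned with the muscle covariate, to 1 gene higher, 3 lower and a median of -0.54, and over the alternatives between 1 and 5 genes were higher. The genes that met the criterion over all samples were Igfbp6, which binds insulin-like growth factor 2, with a log2 fold change of 1.86 (SE 0.41), and Ly6a, the surface antigen Sca-1, with 1.18 (SE 0.38), which missed the criterion without 0%-Axitinib replicate 2, without 3%-Axitinib replicate 1 and with the muscle covariate (0.88). Igfbp6 was at 493, 227 and 241 CPM in 0%-Axitinib tissue and at 1200, 850 and 1443 CPM in 3%-Axitinib tissue, so the groups did not overlap. Gsn, an actin-severing protein and the most abundant of the list, was at a log2 fold change of 1.10 (SE 0.57) with overlapping groups. It met the criterion with DESeq2's Wald test and in fits lacking 3%-Axitinib replicate 2 or both libraries that stand apart, and with the muscle covariate it was 0.01. Without both libraries, 4 genes of the list met the criterion higher and 1 lower.

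Of 19 other activated fibroblast and myofibroblast genes, 4 met the criterion higher and none lower, with a median of 0.72 (0.25 and 2 genes without the libraries that stand apart). Without 0%-Axitinib replicate 1, 8 met it higher, with a median of 1.08, and without 0%-Axitinib replicate 2 or 3%-Axitinib replicate 2 only 2 did. Lox, which cross-links collagen, was at 174, 177 and 91.0 CPM in 0%-Axitinib tissue and at 567, 874 and 240 CPM in 3%-Axitinib tissue. The groups did not overlap, and the log2 fold change was 1.93 (SE 0.52), with replicate 3 the lowest of the 3%-Axitinib group. Grem1, an antagonist of bone morphogenetic proteins, had a log2 fold change of 1.32 (SE 0.39) and missed the criterion without both libraries that stand apart. Mmp14, a membrane-bound collagenase and the most abundant of the list, had 0.77 (SE 0.25) and missed the criterion without 0%-Axitinib replicate 2, without replicate 1 or 2 of the 3%-Axitinib group, with the replicate block and with the muscle covariate.

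Of 20 other matricellular genes, 7 met the criterion higher and none lower, with a median of 0.87. Without the libraries that stand apart, 5 met it higher and 1 lower, with a median of 0.55. The number higher was 3 without 0%-Axitinib replicate 2, 4 without 3%-Axitinib replicate 2 and 10 with DESeq2's Wald test. A gene also met it lower with DESeq2's size factors, total counts, DESeq2's Wald test, the replicate block and without 0%-Axitinib replicate 3, and 2 did with the muscle covariate. Ctgf, a target of TGF-beta and of the Hippo pathway also known as Ccn2, was at 174, 97.8 and 79.2 CPM in 0%-Axitinib tissue and at 459, 418 and 226 CPM in 3%-Axitinib tissue, a log2 fold change of 1.65 (SE 0.41). Its groups did not overlap, nor did those of Wisp2 (Ccn5; log2 fold change 1.51, SE 0.32) and Thbs2, the antiangiogenic thrombospondin-2 (log2 fold change 1.27, SE 0.35). Sparc, a collagen-binding protein of bone and of remodelled tissue, was the most abundant of the list, at 4427, 2427 and 2810 CPM in 0%-Axitinib tissue and at 5252, 18042 and 6018 CPM in 3%-Axitinib tissue. Its log2 fold change of 1.60 (SE 0.60) missed the criterion with the replicate block and in fits lacking replicate 2 of either group, 0%-Axitinib replicate 3 or both libraries that stand apart.

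Of 9 tested receptors of fibronectin, tenascin-C and periostin, 1 met the criterion higher and 3 lower, with a median of -0.32. Without the libraries that stand apart, 4 met it lower and 2 higher, with a median of -0.56. Over the alternatives the median lay between -0.56 and -0.15. Only 1 met it lower with the muscle covariate or without replicate 1 or 3 of the 3%-Axitinib group. Itga4, the integrin subunit alpha 4 that leukocytes carry, was at 25.0, 35.8 and 44.4 CPM in 0%-Axitinib tissue and at 11, 10.3 and 14.4 CPM in 3%-Axitinib tissue. The groups did not overlap, and the log2 fold change was -1.56 (SE 0.28). Itgav and Itgb3, subunits of integrins that bind periostin and fibronectin, had log2 fold changes of -0.91 (SE 0.36) and -1.42 (SE 0.53), and each missed the criterion in several fits with a sample left out (Itgav without replicates 1 or 2 of the 0%-Axitinib group or 1 or 3 of the other, Itgb3 without 0%-Axitinib replicate 3 or replicates 1 or 3 of the other). Both also missed it with the muscle covariate. Sdc4, a proteoglycan that binds fibronectin with integrins, had a log2 fold change of 1.26 (SE 0.29), with no overlap of the groups. Itgb1, the most abundant, had -0.24 (SE 0.31).

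Of 16 other microfibril and elastic fibre genes, 5 met the criterion higher, like Mfap5, and none lower, with a median of 0.76 (4 higher, 1 lower and 0.55 without the libraries that stand apart). Only 2 met it higher with total counts or without 0%-Axitinib replicate 2, and 3 without 0%-Axitinib replicate 3, while 9 did without 0%-Axitinib replicate 1. Efemp2, which takes part in elastic fibre assembly, had a log2 fold change of 1.25 (SE 0.29), and Fbln1, which encodes fibulin-1, had 1.39 (SE 0.40). Emilin1 had 0.95 (SE 0.36) and missed the criterion with total counts in place of TMM scaling and without replicate 2 of either group, 0%-Axitinib replicate 3 or both libraries that stand apart. Fbln2, the most abundant, had 1.17 (SE 0.60), with groups that did not overlap, and met the criterion with DESeq2's Wald test and without replicate 1 or 3 of the 0%-Axitinib group.

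Of 9 other S100 genes tested, 4 met the criterion higher and 1 lower, with a median of 0.61 (6 higher, 0 lower and 1.09 without the libraries that stand apart). Without replicate 1 or 2 of the 0%-Axitinib group, 2 were higher and 2 lower. S100a10 was at 359, 267 and 246 CPM in 0%-Axitinib tissue and at 632, 773 and 701 CPM in 3%-Axitinib tissue, with a log2 fold change of 1.27 (SE 0.26), and S100a6 and S100a16 had 1.15 (SE 0.38) and 0.95 (SE 0.28). S100a6 missed the criterion without replicate 1 or 2 of the 0%-Axitinib group. S100a9 was the lower gene, at -7.09 (SE 2.68), and 0%-Axitinib replicate 3 was its highest sample. It turned to 0.61 without that library and was 0.03 without both libraries that stand apart, with no call in either fit. It also missed the criterion without any 1 of the 3%-Axitinib samples, with limma-voom, with the replicate block and with the muscle covariate, while DESeq2's Wald test gave no p for it.

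Of 8 genes of TGF-beta signalling, which activates fibroblasts, 1 met the criterion higher and 1 lower, with a median of 0.05 (0 higher, 1 lower and -0.01 without the libraries that stand apart). None was higher without replicate 2 of either group, 2 were higher without 0%-Axitinib replicate 1, and 2 were lower without 3%-Axitinib replicate 2. The counts over all samples are near the 9.54% higher and 11.7% lower of all tested genes. All values of this list leave out a gene, a choice made after the first results were seen. The receptor Tgfbr1 was at 131, 179 and 104 CPM in 0%-Axitinib tissue and at 63.6, 68.0 and 48.5 CPM in 3%-Axitinib tissue. The groups did not overlap, and the log2 fold change was -1.20 (SE 0.26; adjusted p = 0.0972, edgeR's quasi-likelihood test with Benjamini-Hochberg adjustment). The ligand Tgfb2 had a log2 fold change of 1.48 (SE 0.49) and missed the criterion without replicate 2 of either group and without both libraries that stand apart. The receptor Tgfbr2, the most abundant per length, had 0.17 (SE 0.48).

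Other cell types of the tissue were described by lists of marker genes. Endothelial genes met the criterion lower in 9 of 10 cases and summed to 917, 614 and 950 CPM in the 0%-Axitinib samples against 263, 288 and 397 CPM in the 3%-Axitinib samples (most abundant, Pecam1, log2 fold change -1.61). Over the alternatives, between 6 and 9 of them met it lower. Of 8 pericyte and smooth muscle genes, 4 met it lower (Rgs5, -2.22), while the other 4 had log2 fold changes above 0, up to 1.67. Of 8 adipocyte genes 3 met it lower (Fabp4, -1.22), and up to 7 did over the alternatives. None of 12 macrophage genes met it (Lyz2, 0.21; 1 gene lower without 0%-Axitinib replicate 3), and they summed to 11716, 12191 and 8944 CPM against 8474, 10872 and 16949 CPM.

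Skeletal muscle genes met the criterion higher in 9 of 11 cases, but none did with limma-voom and none had groups that did not overlap, and they were low in 3%-Axitinib replicate 2. The most abundant, Acta1, was at 35.1, 0.292 and 0.0543 CPM against 3924, 0.0911 and 1852 CPM, and did not meet it over all samples. Acta1 met it higher with DESeq2's Wald test and in fits that lacked 0%-Axitinib replicate 1, 3%-Axitinib replicate 2 or both libraries that stand apart, and it met it lower with the muscle covariate, of which it is a part.

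Of 9 cartilage genes, 5 met it higher (Col2a1, 2.53, which missed it without 3%-Axitinib replicate 2), and 3 did without 3%-Axitinib replicate 2. Of 8 osteoblast genes, 2 met it higher (Ibsp, 4.16, still 2.53 at the lowest of the alternatives), while 5 did with the muscle covariate and 4 without both libraries that stand apart. Of 4 tendon genes, 2 met it higher (Fmod, 1.87), and none did without replicate 2 of either group, without 3%-Axitinib replicate 1 or without both libraries that stand apart. Fmod also missed it without 0%-Axitinib replicate 3. Of 5 Schwann cell genes, 1 met it higher, and 4 had 3%-Axitinib samples all above the others, against 14.7% of all tested genes. None met it with total counts, the muscle covariate, or without 0%-Axitinib replicate 2 or any 1 of the 3%-Axitinib samples. With DESeq2's Wald test 3 met it, with limma-voom and with the replicate block 4, and without 0%-Axitinib replicate 1 all did. The most abundant of that list, Pmp22 (0.85), did not meet it over all samples, and did so only without 0%-Axitinib replicate 1.

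Of 7 lymphocyte genes, 6 met it lower, and 2 did with limma-voom, the replicate block, the muscle covariate or without 3%-Axitinib replicate 3, fits in which Nkg7 (-5.03) missed it. Without 0%-Axitinib replicate 3, Nkg7 was -1.72 and the median of the list went from -4.26 to -1.72, with 4 genes lower, and without both libraries that stand apart 5 genes were lower and 1 higher. Of 5 keratinocyte genes, 2 met it lower, among them Krt10 (-3.93). Without 0%-Axitinib replicate 2, Krt10 turned to 0.52 and the median of the list went from -3.93 to 0.52. None met it lower with limma-voom, with the muscle covariate, without 0%-Axitinib replicate 2 or without any 1 of the 3%-Axitinib samples, and Krt10 also missed it with the replicate block and was given no p by DESeq2's Wald test. Both lists had their sum dominated by a single 0%-Axitinib library. No gene of these lists was at 0 in all samples. The part of each cell type in the levels of the fibroblast genes was not tested.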

How the data were processed

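The authors filtered reads with fastp, aligned them to mm10 with STAR (version 2.5.2b in the submitters' processing notes) and deposited raw read counts per gene, in the layout of STAR's own gene counting. The annotation release and the use of strand are not given in the sources used here. Lines of the table that name no gene (unmapped reads, between 3.84% and 48.4% of a library, multimapping, outside genes and ambiguous) were left out of library sizes and tests. The analysis used edgeR 4.0.16 (R 4.3.3), with filterByExpr (minimum count 10, minimum total 15), TMM scaling, the quasi-likelihood test on 15257 genes and Benjamini-Hochberg adjustment. Per-sample averages used log2 CPM with a prior count of 2. Gene lengths and positions came from GENCODE vM21. Alternatives used DESeq2 1.42.0, limma 3.58.1, other scalings, filters and thresholds, covariates, and fewer samples. Figures used matplotlib 3.10.9 under Python 3.11.15. The members and lists were chosen with earlier results of these data known. The text names all 10 members, the most abundant gene per length of each list, and, for lists that are not of another cell type, up to 3 genes per direction that met the study's criterion with the smallest p. A gene of the TGF-beta list is not reported here, and the values of that list were computed without it after the first results were seen.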

Additional observations from a re-analysis of the deposited data

How the results depend on the processing

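The log2 fold changes of Cthrc1, Postn, Tnc, Fn1, Fap and Mfap5 stayed above 0 under all 16 alternatives, and Cthrc1 met the criterion in each of these, between 1.26 and 3.37. With the muscle covariate, Pi16 (-1.20), Dpt (-0.61) and the resting median (-0.91) reversed, and 960 genes met the criterion higher, 900 lower, 3 members higher (Cthrc1, Tnc and Fap), 1 member lower (Pi16) and 0 passed an adjusted p of 0.05 (edgeR's quasi-likelihood test). Lrrc15 reversed without 0%-Axitinib replicate 2 (-0.0016), without replicate 3 (-0.24) and without both libraries that stand apart (-0.28), and leaving out single samples gave -0.24 to 1.92. Dpt also reversed without 0%-Axitinib replicate 3 (-0.036), and leaving out single samples gave -0.036 to 0.92 for it. The causes were not tested. The number of genes past an adjusted p of 0.05 (1 by edgeR's quasi-likelihood test) was 1960 with DESeq2's Wald test, 2 with limma-voom, 15 without an expression filter, 0 to 1252 with single samples left out (highest without 0%-Axitinib replicate 3) and 1572 without both libraries. Single samples left out gave 1055 to 2274 genes higher by the criterion (6.65% to 14.5% of those tested) and 1 to 3 of the 9 tested members. Groups did not overlap, in either direction, for 5659 to 8435 genes and 3 to 6 members. The 6 members were seen without 0%-Axitinib replicate 1, where 6275 of 15868 tested genes did not overlap. Without both libraries, 2346 genes (15.2%) and 3 members were higher. Groups then did not overlap for 10241 of 15477 tested genes and for 6 of the 9 members, which are similar shares. Fewer samples make groups overlap less. At a fold change of 2, 879 genes were higher and 1072 lower. At p of at most 0.01, 552 were higher, 700 lower and 0 members higher. Total counts moved the median of all genes from -0.03 to -0.16 and the counts by the criterion to 989 higher and 2448 lower. The activated minus resting level uses no fit, so the other tests and covariates give no value for it. Deviations of samples with the same replicate number correlated at 0.18, -0.12 and -0.17, and those of samples with different numbers between -0.22 and 0.21. With 3 samples a group, these values cannot decide whether the numbers pair the samples. With the number as a replicate block, Cthrc1 was 2.28 and Mfap5 1.55, and 2 genes passed an adjusted p of 0.05 (edgeR's quasi-likelihood test). S100a4, at 2 to 10 reads a sample, did not pass the expression filter.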
